A study of Mus musculus with 16 samples.

Results

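The genes described here are 9 genes used by type 3 innate-like lymphocytes: the transcription factors Rora and Zbtb16, the cytokine receptors Il7r, Il23r and Il1r1, the chemokine receptor Ccr6, and the cytokines Il17a, Il17f and Il22. They were chosen by name, with earlier results of these data known, as 9 of the 55423 rows of the count table. All 9 were found by symbol and were among the 21085 genes tested. RNA was sequenced from sorted lymph node macrophages of male C57B/6 mice carrying a MOC2 squamous cell carcinoma in the flank, 2 weeks after implantation. Subcapsular sinus macrophages (SSMs) were sorted as CD11c- cells of low side scatter and medullary sinus macrophages (MSMs) as CD11c+ cells of high side scatter, both within a gate that was negative for 7AAD, CD3, B220 and Ly6G and positive for CD45, CD11b and CD169. Each subset came from tumor-draining nodes (tdLNs, 2 per pool) and from nodes on the side without a tumor (ndLNs, 6 per pool), so every ndLN value also comes from tumor-bearing mice. The tumor was implanted near the inguinal node, while the ndLNs were inguinal, axillary and brachial nodes. Tumor drainage and node site can therefore not be told apart here. By the labels each of the 4 groups had 2 libraries, numbered 1 and 2. The exception was 1 SSM library from tdLNs, whose label has no number and which was taken as number 1. Libraries with the same number were taken to come from the same pool of 2 mice. The study's text instead counts 4 pools that each gave 4 samples, which the labels do not show. Each library held 42972328 to 48130352 counts after its 2 lanes were summed.

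Type 3 lymphocytes are innate lymphoid cells, gamma delta T cells and other innate-like T cells that release IL-17 and IL-22 quickly after IL-23 and IL-1 signals from myeloid cells. The receptor for IL-7 supports their survival and CCR6 guides them toward epithelial and subcapsular sites. In the mouse lymph node such cells patrol the subcapsular sinus in close contact with CD169+ macrophages, and they share the nodes with many other lymphocytes. These genes are not used as macrophage markers, and the sort was meant to leave out T cells by their surface CD3.

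The upstream sequences of 4 of the 9 genes are shown because they hold AGGTCA, the core letters bound by the nuclear receptor that Rora encodes. Letters are from RefSeq on GRCm38.p6, read 5′ to 3′ on the strand of the gene, covering the 250 bases before the start of transcription, and capitals mark AGGTCA or its reverse complement TGACCT. The windows are chr1:20730655-20730904 for Il17a (plus strand), chr1:20784271-20784520 for Il17f (minus strand), chr6:67491856-67492105 for Il23r (minus strand) and chr17:8235793-8236042 for Ccr6 (plus strand). Of these windows, that of Il17f overlaps an exon in GENCODE M21, by 26 bases of a longer Il17f transcript, and the others overlap none.
Il17a: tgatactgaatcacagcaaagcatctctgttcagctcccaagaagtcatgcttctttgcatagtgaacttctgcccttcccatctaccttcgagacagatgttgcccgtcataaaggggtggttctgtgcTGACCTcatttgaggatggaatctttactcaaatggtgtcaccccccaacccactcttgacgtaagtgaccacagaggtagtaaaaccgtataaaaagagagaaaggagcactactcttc
Il17f: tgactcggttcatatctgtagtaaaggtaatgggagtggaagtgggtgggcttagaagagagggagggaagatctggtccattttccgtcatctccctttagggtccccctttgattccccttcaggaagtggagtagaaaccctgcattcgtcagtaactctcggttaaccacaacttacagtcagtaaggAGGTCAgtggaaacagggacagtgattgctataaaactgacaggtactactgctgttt
Il23r: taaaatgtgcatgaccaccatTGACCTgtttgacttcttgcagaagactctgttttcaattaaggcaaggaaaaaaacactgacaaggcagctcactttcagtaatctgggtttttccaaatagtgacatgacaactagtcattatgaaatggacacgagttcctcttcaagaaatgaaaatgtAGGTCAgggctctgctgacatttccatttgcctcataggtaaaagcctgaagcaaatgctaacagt
Ccr6: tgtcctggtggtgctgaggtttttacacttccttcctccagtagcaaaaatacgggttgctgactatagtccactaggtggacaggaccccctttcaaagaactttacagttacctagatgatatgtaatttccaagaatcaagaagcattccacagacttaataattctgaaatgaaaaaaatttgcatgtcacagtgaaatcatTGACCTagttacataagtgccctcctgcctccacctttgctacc
The match began 120 bases before the start in Il17a, 58 in Il17f and 44 in Ccr6, and Il23r held 2 matches, 66 and 229 bases before its start. RefSeq had a promoter entry for 8 of the 9 genes, with 10 promoters in all, and 4 of the 10 held a match on either strand within 250 bases before to 50 after the start. Of all 32851 promoters 5340 (16.3%) held one. A match of 6 letters is a description of the window and not a binding site.

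Transcripts of all 9 genes were more abundant in SSMs than in MSMs, from both kinds of node. Because earlier results of these data were known at their choice, the shares over all genes, here and below, are not independent support. In ndLNs 9 of 9 were called higher in SSMs, against 6.01% of all genes tested (edgeR quasi-likelihood test, called at a Benjamini-Hochberg adjusted p under 0.01 and a mean normalised count over 100 on the scale of 1 lane). Their log2 fold changes ran from 4.14 to 7.29 with a median of 5.02, beside a median of 0.09 over all genes. In tdLNs 9 of 9 were again called higher, against 5.16% of all genes, with a median of 5.26 beside 0.02. The lowest SSM library exceeded the highest MSM library for 9 of 9 genes in each kind of node, which held in this direction for 30.7% of all genes in ndLNs and 29.5% in tdLNs. With Holm adjustment, which the study used, 5 of 9 were called in ndLNs and 3 of 9 in tdLNs. Of all 21085 genes 109 and 73 were then called higher in SSMs. In bulk libraries such as these, fewer cells of a type and less RNA per cell cannot be told apart.

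**Figure D1:**
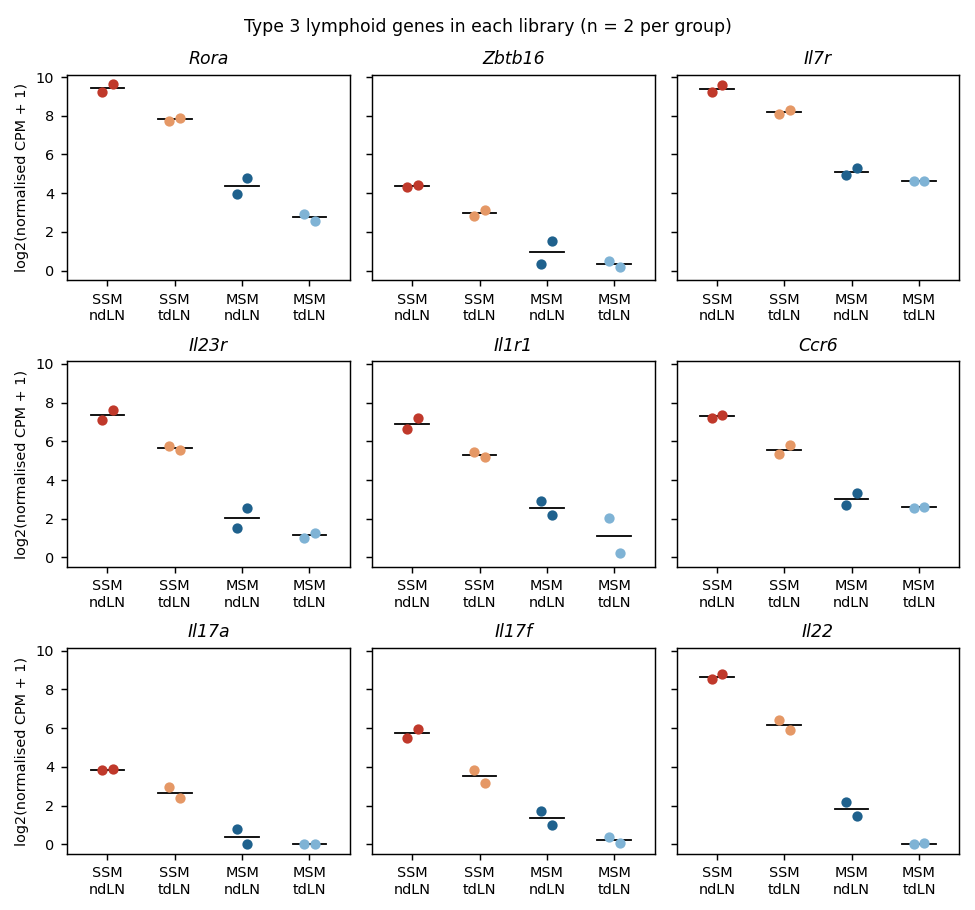
Level of each of the 9 genes in each of the 8 libraries, as log2 of normalised CPM plus 1, by group on the x axis. Points are libraries, the left one from pool 1, and lines are means of 2. For every gene both SSM groups lie above both MSM groups, and SSMs from ndLNs lie above SSMs from tdLNs.

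Rora encodes the retinoic acid receptor-related orphan receptor alpha, which innate lymphoid cells and IL-17-producing T cells need. Its level was 607 and 800.2 normalised CPM (counts scaled to library size with TMM factors) in the SSM libraries from ndLNs, 209 and 238 in those from tdLNs, 14.7 and 26.6 in MSMs from ndLNs, and 6.69 and 4.95 in MSMs from tdLNs. No 2 groups overlapped, and the order of the groups was the same in both pools. SSMs exceeded MSMs by a log2 fold change of 5.10 ± 0.26 (SE) in ndLNs (adjusted p = 2.52e-05) and of 5.26 ± 0.28 in tdLNs (adjusted p = 6.31e-05). Zbtb16 encodes PLZF, a zinc finger factor of innate-like T cells and of innate lymphoid precursors. It was read at 19.2 and 20.4 CPM in SSMs from ndLNs, 6.19 and 7.66 in SSMs from tdLNs, 0.256 and 1.94 in MSMs from ndLNs, and 0.412 and 0.154 in MSMs from tdLNs. The SSM groups were tight and apart from each other, while the MSM libraries of both nodes overlapped, at 7 to 87 counts. Zbtb16 differed between subsets by 4.14 ± 0.46 in ndLNs (adjusted p = 0.000500) and 4.63 ± 0.69 in tdLNs (adjusted p = 0.00279).

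Il7r, the alpha chain of the IL-7 receptor, stood at 602 and 757 CPM in SSMs from ndLNs, 268 and 311 in SSMs from tdLNs, 29.5 and 38.5 in MSMs from ndLNs, and 23.4 and 23.6 in MSMs from tdLNs. It was the member with the highest level in MSMs, whether read as CPM or per kilobase. Its excess in SSMs was 4.32 ± 0.15 on the log2 scale in ndLNs (adjusted p = 1.45e-05) and 3.62 ± 0.15 in tdLNs (adjusted p = 3.48e-05). Il23r, the chain that gives the IL-23 receptor its specificity, was at 137 and 195 CPM in SSMs from ndLNs, 53.0 and 45.5 in SSMs from tdLNs, 1.92 and 4.81 in MSMs from ndLNs, and 1.04 and 1.43 in MSMs from tdLNs. The 4 groups did not overlap. The SSM excess of Il23r was 5.60 ± 0.33 in ndLNs (adjusted p = 3.92e-05) and 5.34 ± 0.39 in tdLNs (adjusted p = 0.000156).

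Il1r1 encodes the signalling receptor for IL-1. Its level was 98.3 and 144 CPM in SSMs from ndLNs, 42.1 and 35.5 in SSMs from tdLNs, 6.51 and 3.61 in MSMs from ndLNs, and 3.05 and 0.176 in MSMs from tdLNs. The 2 MSM libraries from tdLNs were far apart, at 126 and 8 counts. The SSM excess was 4.63 ± 0.52 in ndLNs (adjusted p = 0.000658) and 4.65 ± 0.62 in tdLNs (adjusted p = 0.00202). Ccr6, the receptor for CCL20, was at 148 and 166 CPM in SSMs from ndLNs, 39.5 and 55.1 in SSMs from tdLNs, 5.56 and 8.96 in MSMs from ndLNs, and 4.94 and 5.20 in MSMs from tdLNs. The MSM libraries of the 2 nodes came close to each other without overlapping, whereas the SSM groups were well apart. Ccr6 exceeded its MSM level by 4.45 ± 0.21 in ndLNs (adjusted p = 1.97e-05) and by 3.21 ± 0.22 in tdLNs (adjusted p = 0.000120).

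In MSMs the 3 cytokine genes had at most 138 counts in a library. Il22, whose product acts on epithelial and stromal cells, was at 368 and 444 CPM in SSMs from ndLNs, 85.0 and 58.6 in SSMs from tdLNs, and 3.54 and 1.78 in MSMs from ndLNs. In MSMs from tdLNs it had 0 and 2 counts, under the floor of 3 counts per library that a count of 0 allows (0.0552 to 0.0769 normalised CPM). In ndLNs the SSM excess was 7.29 ± 0.34 on the log2 scale (adjusted p = 2.17e-05), and in tdLNs Il22 was at least 1035-fold higher in SSMs (adjusted p = 7.99e-05). Of the 50-base stretches of Il22 transcripts, 41.0% also occur in Iltifb, a near-identical copy, so reads from Il22 could in part have been shared with it; Iltifb itself had 0 to 17 counts per library.

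Il17a and Il17f encode cytokines that pair as homodimers or as a heterodimer and signal through the same receptor. Il17a was at 13.2 and 14.0 CPM in SSMs from ndLNs and 6.79 and 4.22 in SSMs from tdLNs. Among the 4 MSM libraries it was counted only in the pool 1 library from ndLNs, with 29 counts. Its log2 excess in SSMs from ndLNs was 5.29 ± 0.66 (adjusted p = 0.00164), and it was at least 79.4-fold higher in SSMs from tdLNs than in MSMs from tdLNs (adjusted p = 0.00612). Il17a was also the member nearest the cut-off on level, with a mean normalised count of 110.2. Il17f was at 44.3 and 61.7 CPM in SSMs from ndLNs, 13.5 and 8.14 in SSMs from tdLNs, 2.33 and 1.02 in MSMs from ndLNs, and 0.291 and 0.044 in MSMs from tdLNs. No 2 groups overlapped. Its SSM excess was 5.02 ± 0.43 in ndLNs (adjusted p = 9.24e-05) and 6.03 ± 0.74 in tdLNs (adjusted p = 0.000811). Of the 50-base stretches of Il17f transcripts, 5.63% also occur in other genes, most often in Trim24, which had 502 to 1067 counts per library. How reads from such stretches were counted is not given in the sources used here.

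Levels of different genes were compared per kilobase of exon, merged over all annotated transcripts of a gene. That length can exceed the length of the transcript present, so the comparison between genes is rough. Il22 led in SSMs from ndLNs with 365 ± 48.4 CPM per kb (SD, n = 2). It was followed by Il7r with 146 ± 23.5, Ccr6 with 67.7 ± 5.24, Il23r with 66.7 ± 16.4 and Rora with 53.8 ± 10.5 CPM per kb. Below these came Il17f with 26.2 ± 6.09, Il1r1 with 19.1 ± 5.13, Il17a with 11.6 ± 0.495 and Zbtb16 with 3.75 ± 0.158 CPM per kb. Ccr6 and Il23r, Il23r and Rora, and Il17f and Il1r1 overlapped between libraries, so their order is not set by these data.

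In SSMs from tdLNs the first 5 genes of the per-kilobase order were the same, but Il22 at 64.7 ± 16.8 CPM per kb overlapped Il7r at 62.0 ± 6.57. Ccr6 (20.4 ± 4.75) and Il23r (19.8 ± 2.12) overlapped again, and Rora was at 17.1 ± 1.55 CPM per kb. Il1r1 at 6.10 ± 0.725, Il17f at 5.36 ± 1.89 and Il17a at 4.70 ± 1.55 CPM per kb overlapped from each to the next, and Zbtb16 was lowest at 1.31 ± 0.197. In MSMs Il7r led, with 7.29 ± 1.36 CPM per kb in ndLNs and 5.05 ± 0.0349 in tdLNs, ahead of Ccr6 with 3.13 ± 1.03 and 2.19 ± 0.0765. In MSMs from ndLNs Ccr6 overlapped the next gene, Il22, at 2.40 ± 1.12 CPM per kb. In MSMs from tdLNs the genes from Il23r down overlapped from each to the next, and Il22 and Il17a were at or under the floor there, so their order is not set.

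Within SSMs the cytokine genes did not keep 1 ratio between nodes. Per kilobase, Il17f was at 1.95 and 2.56 times Il17a in SSMs from ndLNs and at 1.15 and 1.12 times in SSMs from tdLNs. Il22 was at 29.4 and 33.5 times Il17a in ndLNs and at 13.2 and 14.6 times in tdLNs. The ratio of Il22 to Il17f overlapped between nodes, at 15.1 and 13.1 in ndLNs and 11.4 and 13.1 in tdLNs. The ratio of Rora to Zbtb16 also overlapped, at 12.8 and 15.8 in ndLNs and 13.7 and 12.5 in tdLNs. These ratios are descriptions of 4 libraries and carry no test.

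SSMs from tdLNs held less RNA of these genes than SSMs from ndLNs. Levels were lower in both tdLN libraries than in both ndLN libraries for 9 of 9 genes, which held for 26.3% of all genes, and 6 of 9 were called lower, against 1.05% of all genes tested. The median log2 fold change of the 9 genes was -1.67, beside -0.04 over all genes. Among the cytokines Il22 fell by 2.53 ± 0.25 on the log2 scale (adjusted p = 0.00224) and Il17f by 2.31 ± 0.33 (adjusted p = 0.00459). Among the receptors Ccr6 fell by 1.75 ± 0.18 (adjusted p = 0.00224), Il23r by 1.72 ± 0.25 (adjusted p = 0.00759) and Il7r by 1.23 ± 0.13 (adjusted p = 0.00261). Rora fell by 1.64 ± 0.22 (adjusted p = 0.00507). The other 3 values did not pass: Il1r1 at -1.67 ± 0.42 (adjusted p = 0.0494), Zbtb16 at -1.53 ± 0.34 (adjusted p = 0.0291) and Il17a at -1.32 ± 0.40 (adjusted p = 0.0959).

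The calls between nodes rested on few libraries, since each group had 2. Without any 1 SSM library most or all of these calls were lost, and without any 1 MSM library some were. Fewer genes were called lower over all genes in these fits as well. A group left with 1 library was assumed to vary like the others. With Holm adjustment 0 of 9 were called, against 2 of all 21085 genes called lower. The sign stayed negative for 9 of 9 genes in all of these fits. Over the alternatives the log2 fold change ran from -2.96 to -2.08 for Il22 and from -1.29 to -1.17 for Il7r. The same ndLN libraries of SSMs serve in this comparison and in that of SSMs with MSMs from ndLNs, so the 2 comparisons are not independent.

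**Figure D2:**
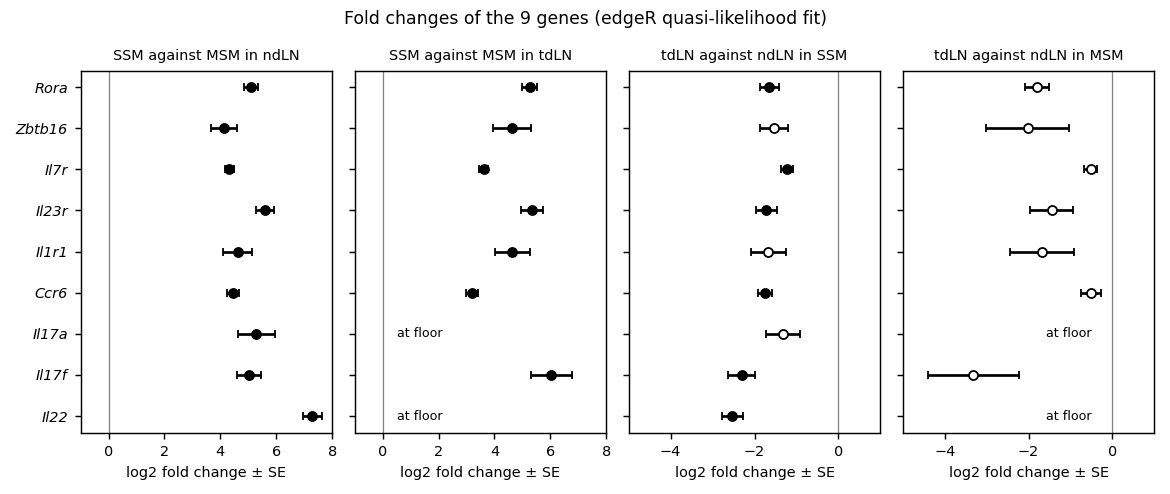
Log2 fold change of each of the 9 genes with its standard error (bars) in the 4 comparisons, from the edgeR fit on all 8 libraries. Filled points were called and open points were not, the grey line marks no change, and "at floor" marks genes with no more than 3 counts in each MSM library from tdLNs, for which no fitted value is drawn. In SSMs all 9 points lie left of the line, from -2.53 for Il22 to -1.23 for Il7r.

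In MSMs the same comparison gave 0 of 9 called genes with edgeR, against 0.0190% of all genes tested called lower. At an unadjusted p under 0.05 it gave 5 of 9, beside 2515 of all 21085 genes in either direction, and DESeq2 called 4 lower (Rora, Il23r, Il22 and Il17f), against 1.41% of all genes called lower by DESeq2. The log2 difference of Rora between tdLNs and ndLNs was -1.80 ± 0.28 (adjusted p = 0.0557), that of Il7r was -0.52 ± 0.15 (adjusted p = 0.230) and that of Ccr6 was -0.51 ± 0.25 (adjusted p = 0.471). Il22 in MSMs from tdLNs was at least 38.3-fold lower than in MSMs from ndLNs (adjusted p = 0.0855). The tdLN libraries were below the ndLN libraries for 7 of 9 genes, against 18.1% of all genes, and overlapped for Il17a and Zbtb16. The median log2 fold change of -1.80, that of Rora, stood beside 0.01 over all genes, and was the same with Il22 and Il17a set to their bounds.

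Whether the effect of the node differed between subsets was tested with an interaction term. With edgeR 0 of 9 genes were called, against 0.0379% of all genes, 3 of 9 had an unadjusted p under 0.05 beside 2598 of all 21085 genes, and DESeq2 called 1, Ccr6, against 2.92% of all genes. For Ccr6 the node difference was 1.24 ± 0.30 log2 units lower in SSMs than in MSMs (adjusted p = 0.133), and for Il7r it was 0.71 ± 0.20 lower (adjusted p = 0.175). For Rora the interaction was 0.16 ± 0.35 (adjusted p = 0.984). A difference of effect between subsets was therefore not established for any of the 9 genes by the main test, which had 4 libraries per subset.

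Genes that work with the 9 in type 3 lymphocytes were read as a list of 15. For this list and those below, the calls over all 21085 genes serve as the comparison. Over all genes 1267 were called higher and 1278 lower in SSMs from ndLNs, and 1089 and 744 in tdLNs. Between nodes in SSMs 418 of all genes were called higher in tdLNs and 221 lower. In ndLNs 11 of the 15 were called higher in SSMs and 1 lower, and in tdLNs 11 were higher and 2 lower. Their median log2 fold changes were 2.87 and 3.00, beside 0.09 and 0.02 over all genes. Cxcr6, a chemokine receptor of tissue lymphocytes, was at 1324 and 1703 CPM in SSMs from ndLNs and at 17.9 and 20.8 in MSMs from ndLNs. The scavenger receptor genes Cd163l1 (5.64, adjusted p = 0.000733) and 5830411N06Rik (7.65, adjusted p = 0.000332), both known from IL-17-producing gamma delta T cells, were higher too. Ahr, the aryl hydrocarbon receptor that type 3 cells need but myeloid cells also carry, went the other way by 2.58 log2 units (adjusted p = 1.96e-05), with 637 and 572 CPM in MSMs and 109 and 94.0 in SSMs. Besides Ahr, the gene called lower in SSMs from tdLNs was Kit, a receptor of innate lymphoid and mast cells (-2.25, adjusted p = 0.000634). For Kit the difference in ndLNs was -0.57 and was not called (adjusted p = 0.1055). Between nodes in SSMs 3 of the 15 were called lower and 1 higher, with a median of -0.77. Those lower were Kit (-2.61, adjusted p = 0.00192), Cxcr6 (-1.58, adjusted p = 0.00298) and Il18r1 (-1.34, adjusted p = 0.00890). The 1 higher was Tmem176b (0.87, adjusted p = 0.00481), an intracellular channel protein that myeloid cells carry as well.

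The partner chains of the member receptors did not all follow them. Of 13 receptor chains and signalling genes 6 were called higher and 1 lower in SSMs from ndLNs, and 4 and 1 in tdLNs. Beside these stand 1267 higher and 1278 lower of all 21085 genes in ndLNs, and 1089 and 744 in tdLNs. Il12rb1, the second chain of the IL-23 receptor, was higher by 4.77 (adjusted p = 0.000136) in ndLNs, at 40.6 and 39.8 CPM in SSMs against 0.820 and 2.10 in MSMs. Il2rg, the common gamma chain that pairs with Il7r, was higher by 2.50 (adjusted p = 3.58e-05). Il1rap, the partner of Il1r1, was at 19.0 and 19.4 CPM in SSMs and 18.7 and 21.8 in MSMs from ndLNs (log2 fold change -0.08, adjusted p = 0.808). The decoy receptor Il1r2 was lower in SSMs from ndLNs by 2.88 (adjusted p = 0.00115). Between nodes in SSMs 2 of the 13 were called, both higher in tdLNs. These were Il1rn, the antagonist of the IL-1 receptor (1.67, adjusted p = 0.00497), and Myd88, an adaptor of IL-1 and Toll-like receptors (1.36, adjusted p = 0.00294).

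Of 6 ligands of the member receptors 2 were called lower in SSMs than in MSMs from ndLNs, beside 1278 of all 21085 genes. Il12b, the chain that IL-23 and IL-12 have in common, was at 22.5 and 73.6 CPM in SSMs and 816 and 718 in MSMs (log2 fold change -4.13, adjusted p = 0.000884). Il1b was at 1979 and 1111 CPM in SSMs and 3602 and 3210.0 in MSMs from ndLNs (-1.18, adjusted p = 0.00298). In SSMs from tdLNs Il1b reached 6855 and 5728 CPM, a log2 change of 2.06 from ndLNs (adjusted p = 0.00192), so the IL-1 beta transcript and its receptor Il1r1 differed between nodes in opposite directions, only the first of them past the threshold. Il23a, the specific chain of IL-23, had at most 3.92 CPM in any library, and Il7 and Ccl20 had at most 1.52 and 2.04. Of 10 tested relatives and receptors of IL-17 and IL-22, 4 were called higher in SSMs from ndLNs (Il17ra, Il17rb, Il17re and Traf3ip2), none lower, and between nodes in SSMs edgeR called 0, with 6 at an unadjusted p under 0.05 and 3 called by DESeq2. Il17re was at 44.8 and 68.9 CPM in SSMs and 1.08 and 1.98 in MSMs from ndLNs (5.19, adjusted p = 3.47e-05).

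Markers of several kinds of lymphocyte moved between subsets together with the 9 genes. All 5 gamma delta T cell genes were called higher in SSMs from both nodes, their summed level being 233 to 259 CPM in SSMs from ndLNs, 110.3 to 115 in SSMs from tdLNs, 4.19 to 7.31 in MSMs from ndLNs and 1.10 to 3.59 in MSMs from tdLNs. Of 14 T cell genes 13 were called higher and 1, Cd8a, lower in SSMs from ndLNs, although the gate excluded cells with surface CD3. The summed level of Cd3d, Cd3e and Cd3g was 444 and 478 CPM in SSMs from ndLNs, 249 and 280.0 in SSMs from tdLNs, 45.3 and 55.6 in MSMs from ndLNs, and 12.9 and 6.69 in MSMs from tdLNs. NK and type 1 genes (8 of 8) and type 2 lymphoid genes (6 of 7) were called higher in SSMs from ndLNs as well, and 3 of 5 mast cell and basophil genes were, led by Cpa3 at 562 and 311 CPM in SSMs against 0.0256 and 0.0891 in MSMs. B cell genes gave 0 of 6 calls with edgeR in ndLNs, with 3 at an unadjusted p under 0.05 and 1 called by DESeq2. The part of these other cells in the levels of the 9 genes was not tested.

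The macrophage genes were read in the same libraries. Lyz2 was at 7939 and 5043 CPM in SSMs from ndLNs, 19310 and 12930 in SSMs from tdLNs, and 3997 to 4635 in the 4 MSM libraries. Siglec1, which encodes the sorting marker CD169, was at 15.1 and 8.47 CPM in SSMs from ndLNs, 70.0 and 59.2 in SSMs from tdLNs, 0.795 and 1.63 in MSMs from ndLNs, and 5.96 and 5.64 in MSMs from tdLNs, so RNA of the sorting marker was low in MSMs. Of the 8 macrophage genes 3 were called toward SSMs and 2 toward MSMs in ndLNs, and 4 and 0 in tdLNs. Cd68 averaged 172.8 CPM in SSMs and 355.3 in MSMs from ndLNs (log2 fold change -1.06, adjusted p = 0.00206). Mertk, the other gene called toward MSMs, averaged 0.297 and 3.26 CPM there (-3.49, adjusted p = 0.00515). Over the 8 macrophage genes the summed level was 5923 to 9108 CPM in SSMs from ndLNs and 15240 to 22300 in SSMs from tdLNs. Between nodes in SSMs 5 of 8 were called higher in tdLNs, against 418 of all 21085 genes. Dendritic cell genes were the list with the most calls toward MSMs. In either node 4 of 5 were called lower in SSMs, against 1278 of all 21085 genes in ndLNs and 744 in tdLNs. Xcr1 was at 24.9 and 33.6 CPM in SSMs and 752 and 701 in MSMs from ndLNs.

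Between nodes in SSMs the lists of lymphocyte genes differed in how far they went. The median log2 fold change was -1.67 for the 9 genes, -1.43 for gamma delta T cell genes, -1.34 for type 2 genes, -0.89 for T cell genes and -0.40 for NK and type 1 genes, beside -0.04 over all genes. Calls lower in tdLNs numbered 1 of 5 gamma delta genes (Tcrg-C4, -1.55, adjusted p = 0.00947), 1 of 7 type 2 genes (Gata3, -1.47, adjusted p = 0.00242) and 3 of 14 T cell genes (Cd4, Cd8b1 and Zap70). Of the 8 NK and type 1 genes edgeR called 0, with 3 at an unadjusted p under 0.05 (Tbx21 at -0.52, Prf1 at -0.57 and Ifng at 0.97) and 0 called by DESeq2. Ncr1, a receptor of NK cells, was at 144 and 113 CPM in ndLNs and 97.6 and 141 in tdLNs. The differences between lists were not tested.

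**Figure D3:**
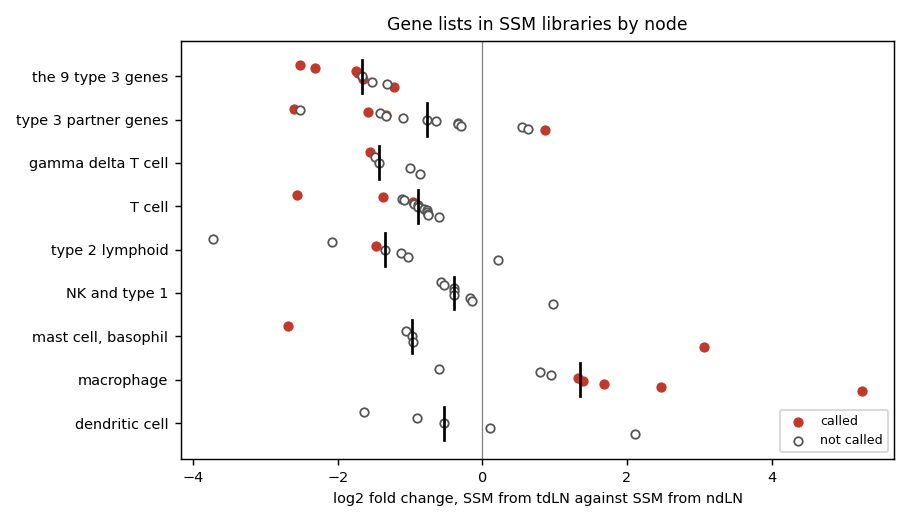
Log2 fold change of each gene between SSMs from tdLNs and SSMs from ndLNs (x axis), by gene list (rows). Filled red points were called, open points were not, and vertical bars are medians of the lists. The 9 type 3 genes lie between -2.53 and -1.23, 7 of the 8 NK and type 1 genes lie left of the grey line and Ifng right of it at 0.97, and most macrophage genes lie right of the line, which marks no change.

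Levels set against the CD3 chains in the same library show the 9 genes relative to CD3 chain RNA, as a description without a test. Which cells carried the CD3 chain RNA was not tested. In SSMs the ratio of each of the 9 genes to the CD3 sum was lower in both tdLN libraries than in both ndLN libraries, which held for 8.57% of all genes tested. For Il22 the ratio was 0.828 and 0.927 in ndLNs and 0.341 and 0.209 in tdLNs, a 3.19-fold difference of the means. For Il17f the difference was 2.74-fold, for Ccr6 1.92-fold, for Il23r 1.91-fold, for Rora 1.80-fold, for Il1r1 1.77-fold and for Zbtb16 1.65-fold. It was smallest for Il17a at 1.39-fold and for Il7r at 1.34-fold. In ndLNs the ratio was higher in SSMs than in MSMs for 9 of 9 genes, from 2.12-fold for Zbtb16 to 15.9-fold for Il22, against 7.69% of all genes. In tdLNs this held for 4 of 9 genes (Rora, Il22, Il17a and Il17f), against 4.22% of all genes. Il23r, Il1r1 and Zbtb16 overlapped between subsets, and 2 genes were lower in SSMs: for Il7r the ratio was 1.08 and 1.11 in SSMs and 1.82 and 3.53 in MSMs, and for Ccr6 0.159 and 0.197 in SSMs and 0.384 and 0.776 in MSMs. The MSM ratios in tdLNs divide by a CD3 sum of at most 12.9 CPM.

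**Figure D4:**
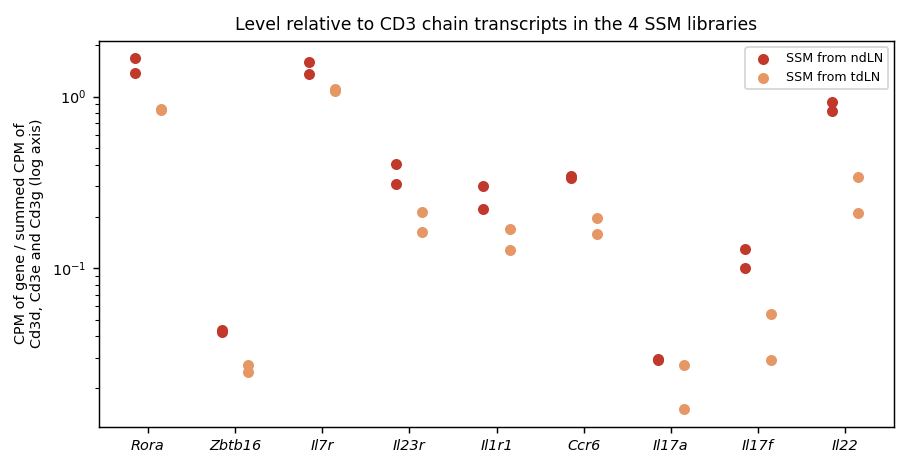
Level of each of the 9 genes divided by the summed level of Cd3d, Cd3e and Cd3g in the same library, on a log axis, for the 4 SSM libraries. Dark points are SSMs from ndLNs and light points SSMs from tdLNs, 2 libraries each. For every gene the light points lie below the dark ones, with the widest gap for Il22 and the narrowest for Il17a and Il7r.

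Among the 9996 genes over the same cut-off on level, those most like each member were found by the root mean square difference of log2(CPM + 1), centred on its mean, over the 8 libraries. Nearest to Rora were Krt83 (0.186), Tnfsf11 (0.237) and F2r (0.241), and nearest to Il23r were Il18r1 (0.240), Calca (0.242) and Sytl3 (0.256). Ccr6 was followed by Hs3st1 (0.234), Rab37 (0.239), Tnik (0.250) and then Il7r (0.252) next, and Il7r itself had Ppp1r3b (0.152), Eya2 (0.155) and Prss12 (0.164) nearest. Rora and Il23r were each the sixth nearest gene of the other (0.333).

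The cytokine genes had neighbours of their own. Nearest to Il22 were Cxcr6 (0.479), Il2rb (0.685) and Ikzf3 (0.709). For Il17a these were Adgrg3 (0.168), Tmprss6 (0.247) and Ptpn13 (0.262), and for Il17f Npnt (0.273), B3galt5 (0.353) and Egln3 (0.369). Genes near Il1r1 included Kcnk1 (0.462), Cd3g (0.477) and Il17f (0.501). Zbtb16 was nearest to Zcchc18 (0.148), Epas1 (0.211) and Igf1r (0.252). The measure describes 8 libraries of 2 subsets and says nothing of control or function.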

How the data were processed

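Counts per gene were deposited by the authors for 16 samples, which are 8 libraries sequenced in lanes 3 and 4, and are not normalised. Per the submitters' processing notes reads were trimmed with Trimmomatic 0.36 and aligned to GRCm38 with STAR 2.5.3a after bcl2fastq 2.20.0.422. The counting annotation and its strand setting are not given in the sources used here, and the library kit (SMART-Seq v4) does not mark strand, so reads from the stretch where Rora overlaps its antisense gene Gm15511 (0 to 13 counts) cannot be assigned.

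Lanes were summed, as they differed by no more than counting noise (chi-square per degree of freedom 0.955 to 1.015, against 52.8 to 95.6 between libraries of a group). The 2 rows of added sequences (6 counts) were left out. Genes that reached 10 counts in total and were seen in 2 or more of the 16 samples were tested with edgeR 4.0.16 (R 4.3.3, quasi-likelihood F test) on all 8 libraries, with TMM factors (0.902 to 1.15), terms for the 4 groups and for the pool, and Benjamini-Hochberg adjustment over 21085 genes. A gene was called at an adjusted p under 0.01 with a mean normalised count over 100 per lane. The study used the same cut-offs but adjusted by Holm's method, with likelihood ratio tests in DESeq2, and Holm adjustment was tried as an alternative. DESeq2 1.42.0 (Wald test) was another.

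The replicate number, which was inferred for an SSM library from tdLNs, was taken to mark the pool. By the study's methods each pool of mice gave all 4 samples, so the pool stayed in the model. Same-numbered libraries deviated together little (correlations of -0.15 to 0.164 over 10000 genes). With the pool as a term, p-values rest on the spread between libraries that group and pool leave over, with information on spread shared across genes. They do not measure the spread between the 2 pools of mice.

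Levels are TMM-normalised CPM, divided by merged exon length (GENCODE M21) where genes are compared. Symbols came from the annotation (55154 of 55423 rows). The floor was 3 counts per library and covers counting error only. Values after ± are standard errors of the edgeR fit for log2 fold changes, and SDs of 2 libraries for levels per kilobase. The scripts were tested on simulated data. Named genes are the 9 members, all genes of the lists and the 3 genes most like each member. Members and lists were chosen with earlier results of these data known. A gene of these lists is not reported here.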

Additional observations from a re-analysis of the deposited data

How the results depend on the processing

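Across 19 alternatives the log2 fold changes of the 9 genes kept their sign in 171 of 171 values for SSMs against MSMs in ndLNs, in tdLNs and for tdLNs against ndLNs in SSMs, in 170 of 171 for the nodes in MSMs, and in 158 of 171 for the interaction. Holm adjustment, an adjusted p under 0.05 and no cut-off on level change only the calls. Their fold changes equal the main ones and could not change sign. Without the replicate block for the pool the counts of called genes stayed at 9, 9, 6, 0 and 0 in these comparisons. With Holm adjustment, the study's own, in place of Benjamini-Hochberg 5 genes were called in ndLNs, 3 in tdLNs and 0 between nodes in SSMs, and with the legacy edgeR fit 3 between nodes in SSMs. DESeq2 called 4 between nodes in MSMs and 1 for the interaction. Leaving out each library in turn gave 7 to 9 called genes in ndLNs, 5 to 9 in tdLNs (5 without pool 2 of MSMs from tdLNs) and 0 to 4 between nodes in SSMs. Such fits have fewer residual degrees of freedom, and the cause of the other shifts was not tested. Over all genes the called number was 2545 in ndLNs (207 to 3886 over the alternatives), 1833 in tdLNs (108 to 3023), 639 between nodes in SSMs (2 to 1832), 5 in MSMs (0 to 458) and 8 for the interaction (0 to 615). Depth limits Il17a and Il22 in MSMs from tdLNs, which had 0 to 2 counts, so that fold differences there are lower bounds.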

Other observations

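Among lists not described above, 0 of 4 neutrophil genes were called between subsets in ndLNs with edgeR (3 at an unadjusted p under 0.05, 1 called by DESeq2) and 2 of 4, S100a8 and S100a9, were called higher in SSMs from tdLNs. Their summed level was 8.88 to 87.7 CPM in SSMs from ndLNs and 91.6 to 214 in SSMs from tdLNs. Of 6 tested stromal and endothelial genes 1, Pecam1, was called higher in SSMs from ndLNs (1.06, adjusted p = 0.00960). Over all 21085 genes 1267 were called higher in SSMs from ndLNs and 1089 in SSMs from tdLNs. The mast cell gene Cpa3 fell by 2.69 on the log2 scale from ndLNs to tdLNs in SSMs (adjusted p = 0.00893), while the basophil gene Mcpt8 rose by 3.06 (adjusted p = 0.00470).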
